A study of Mus musculus with 5 samples.

Results

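The genes described here are Crabp2 and 8 other genes of the retinoic acid pathway, followed through the cells of the mouse growth plate, the cartilage that lengthens long bones. The 9 genes are Stra6, Rbp4, Crabp1, Crabp2, Aldh1a2, Cyp26b1, Rara, Rarb and Rarg, of 29818 genes in all, and all 9 had counts. Crabp2 was chosen by a measured value, namely its call between genotypes in perichondrial cells in an earlier fit to the same files, and the other genes were taken as its pathway. The contrast between genotypes in perichondrial cells is therefore a description below. The adjusted p and the calls printed for it show the measure that chose the gene, and nothing rests on them.

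Single cells came from the knee growth plates (distal femur and proximal tibia) of 5 littermate pups, labelled C57BL/6J, captured on the BD Rhapsody system with 1 library per pup. The WT pups are numbered 1 and 2. Mutant pups 3, 4 and 5 carried Col2a1-Cre and the conditional knock-in Trpv4 p.R594H allele in the heterozygous state, which gives an activating change of a calcium channel in cells where the Col2a1 promoter has driven Cre, chiefly chondrocytes. The knock-in was made on C57BL/6J, while the Col2a1-Cre line came from a mixed B6SJLF1 background and was then crossed to C57BL/6J. Whether the WT pups carried either allele alone is not given in the sources used here, and which cells had recombined was not measured. The sample labels give postnatal day 5 and the description of the series postnatal day 3. Counts are UMIs (unique molecular identifiers, each standing for 1 captured RNA molecule), and a level is given in CPM, the UMIs of a gene in a group of cells of 1 pup scaled to a common total. Counting was at 1 end of each RNA, so levels are compared between cells and not between genes.

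Retinoic acid is made from vitamin A and acts inside the cell. Retinol travels in blood bound to Rbp4 and can enter cells through the membrane receptor Stra6. Dehydrogenases oxidize it, the last step being catalysed by retinaldehyde dehydrogenases such as Aldh1a2. Crabp1 and Crabp2 bind retinoic acid in the cytoplasm, and Crabp2 is known to pass it to the nuclear receptors Rara, Rarb and Rarg, which bind DNA with an Rxr partner. Cyp26b1 is a cytochrome P450 that inactivates retinoic acid. In the developing limb an excess of retinoic acid is known to disturb the formation of cartilage, and mice lacking Cyp26b1 have malformed limbs.

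In the genome annotation (GENCODE release 21 for the mouse, build GRCm38) Crabp2 lies on chromosome 3 from 87948666 to 87953376 on the plus strand and Crabp1 on chromosome 9 from 54764748 to 54773110, also on the plus strand. Stra6 and Aldh1a2 are on chromosome 9 too, Rbp4 on chromosome 19, Cyp26b1 on chromosome 6, Rara on chromosome 11, Rarb on chromosome 14 and Rarg on chromosome 15. Receptors of this family bind paired hexamers, searched here as AGGTCA, the variant AGTTCA, the variant GGGTCA or the variant GGTTCA, repeated in the same direction with 1, 2 or 5 bases between them, on both strands. RefSeq promoter windows (250 bases before to 50 after a start, GRCm38.p6) were found for 8 of the 9 genes, 16 windows in all. The exception was Crabp2. A pair spaced by 5 bases was found in 1 of these windows, that of Rarb, and in 0.0974% of the 32851 windows of all genes, while pairs spaced by 1 and 2 bases were in 0.222% and 0.268% of all windows and in 0 of the 16. The Rarb stretch is shown because Rarb is the receptor gene best known as a target of its own ligand. It spans chr14:16575493-16575549 on the minus strand, upstream of the transcription start of the RefSeq model, with the hexamers in capitals at bases -53 to -37 from that start. A match is a description of letters and no proof of binding.
Rarb promoter: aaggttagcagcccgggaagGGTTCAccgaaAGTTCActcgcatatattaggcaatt

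The labels call all cells chondrocytes, while the marker genes also named connective tissue, vessel and blood cells. After filtering, 82516 cells remained, between 13814 and 19133 per pup. The files held 174434226 and 183322632 UMIs for the WT pups and 117746735 to 159306162 for the mutant pups. The WT pups were read more deeply, with medians of 9261 and 8521 UMIs per cell against 6000 to 7016. Pairs of libraries shared between 3 and 7 cell barcodes, where 3.8 to 6.3 would be shared at random. Xist was detected in 89.8% and 88.4% of the cells of mutant pups 3 and 4 and in at most 0.174% in the others, and Ddx3y followed the opposite pattern, so both WT pups and mutant pup 5 read as male and mutant pups 3 and 4 as female. Sex and genotype are thus partly confounded. Trpv4, the targeted gene, was at 160 and 102 CPM over all cells in the WT pups and at 90.3, 148 and 175 CPM in the mutant pups, and a base change cannot be seen in such counts. Clustering without the retinoic acid genes gave 49 clusters, of which 42 took a name from marker genes. The 7 unnamed clusters held 14941 cells, more than any named class. Among them, clusters of 3747, 2973, 2285 and 2152 cells scored highest for proliferating chondrocytes. The named proliferating class was 1 cluster of 1244 cells, led by genes of dividing cells such as Ccnb1, Birc5 and Cdk1. Levels and contrasts of proliferating chondrocytes below are those of this cluster alone. The 16 named classes with at least 20 cells in every pup are described. Some are mixed. Of the 5451 cells of the Tgfbi chondrocytes, 2402 formed a cluster led by genes of dividing cells such as Top2a, Prc1 and Ccna2. The tendon or ligament class held a dividing cluster of 1706 cells, a cluster of 1106 cells led by the heat shock genes Hspa1b and Hspa1a, and a cluster of 4465 cells led by Podn and Aqp1 that scored higher for perichondrium than for tendon or ligament. Of the 13552 resting chondrocytes, clusters of 4873 and 2300 cells scored higher for articular chondrocytes, so the border of these classes is uncertain.

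Crabp2 was concentrated in connective tissue cells around the cartilage. Its level in each class, as the mean over the 5 pups, was 54.5 CPM ± 23.3 (SD, n = 5) in synovial cells, 50.2 CPM ± 19.8 in perichondrial cells and 46.9 CPM ± 36.3 in osteoblasts, with no order among them. Adventitial fibroblasts followed at 31.1 CPM ± 8.46 and tendon or ligament cells at 18.9 CPM ± 5.67. The ranges of the pups overlapped between each of these neighbours in the order, and synovial cells were above perichondrial cells in 3 of 5 pups only. Adventitial fibroblasts were above tendon or ligament cells in 5 of 5 pups, and tendon or ligament cells above resting chondrocytes in 5 of 5.

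Chondrocytes held little Crabp2. Resting chondrocytes had 9.24 CPM ± 3.34, hypertrophic chondrocytes 7.86 CPM ± 3.14, articular chondrocytes 4.02 CPM ± 1.65 and proliferating chondrocytes 1.70 CPM ± 0.988 (SD, n = 5 pups each). Erythroid cells and granulocytes, which are blood cells and not part of the skeleton, had 7.22 CPM ± 3.89 and 7.10 CPM ± 10.9. Single pups ranged from 0.505 to 14.1 CPM in these chondrocytes and from 2.74 to 13.0 CPM in erythroid cells, and free RNA of other cells can be counted in any of them.

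**Figure D1:**
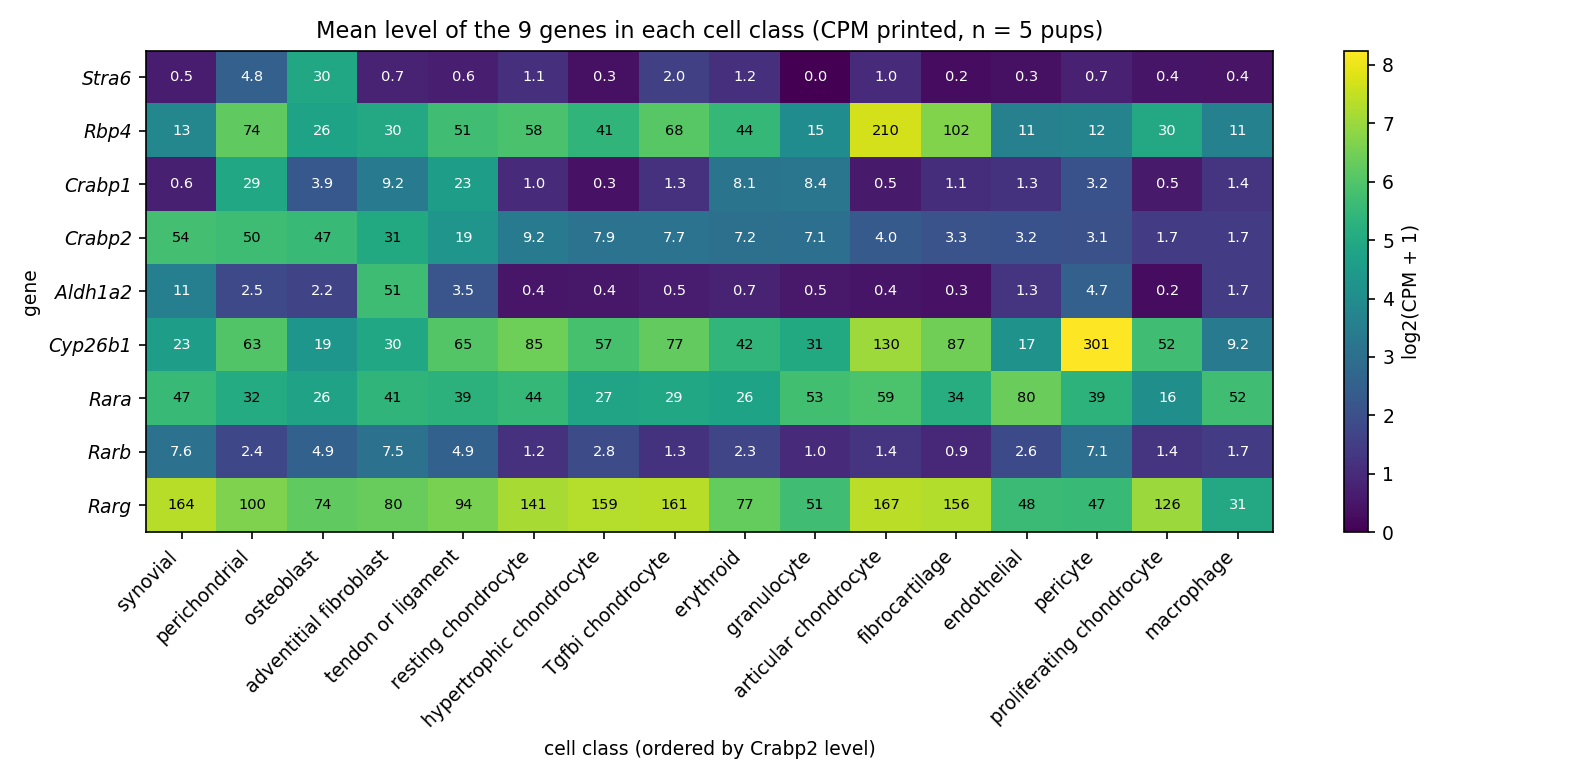
Mean level of the 9 genes (rows) in the 16 cell classes (columns, ordered by the level of Crabp2). The number in each field is the mean CPM over 5 pups and the colour is log2(CPM + 1). The rows differ in where they peak, for example 210 CPM in articular chondrocytes for Rbp4 and 301 CPM in pericytes for Cyp26b1.

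The perichondrial class held 8581 cells, between 9.32% and 12.2% of the cells of a pup, and joined 2 clusters that differed in the genes of this pathway. The perichondrium is the fibrous sheath around cartilage from which new chondrocytes and bone-forming cells arise. The first cluster (4453 cells) was led by Ostn, Igfbp3, Ccdc3, Epha3, Col8a1 and Aspn and had 16 of the 17 perichondrial markers above the other clusters. Alpl was also among its leading genes. The second (4128 cells) was led by Cilp2, Col1a1, C1qtnf2 and Col1a2, had 10 of the 17, and scored higher for tendon or ligament than for perichondrium, so its name is the less certain. They are called the Ostn and Aspn cells and the Cilp2 and Col1a1 cells below.

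Crabp2 belonged to the Ostn and Aspn cells. Its level there was 75.9 and 68.8 CPM in the WT pups and 104, 109 and 107 CPM in mutant pups 3, 4 and 5. In the Cilp2 and Col1a1 cells it was 4.65 and 5.49 CPM in the WT pups and 6.72, 4.57 and 4.82 CPM in the mutant pups. The first cluster was the higher in every pup, by more than 10 times. A UMI of Crabp2 was found in 34.6% of the Ostn and Aspn cells and in 3.29% of the Cilp2 and Col1a1 cells, at median depths of 7123 and 7505 UMIs. Macrophages, which should lack the gene, had a Crabp2 UMI in 1.19% of cells at a median depth of 7588 UMIs. With every cell thinned to 3000 UMIs these shares were 20.2%, 1.35% and 0.437%. Erythroid cells had a Crabp2 UMI in 3.81% of cells at a median depth of 7238 UMIs, and in 1.11% when thinned. The share in the Cilp2 and Col1a1 cells was thus near that of erythroid cells. It was also nearer to that of macrophages than to that of the Ostn and Aspn cells. With another random seed for the clustering the perichondrial class held 94.1 CPM of Crabp2 on average, so the level of the class depends on where its border falls.

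The amount per positive cell was mostly small. In the Ostn and Aspn cells between 16.6% and 18.8% of the cells of a pup had exactly 1 Crabp2 UMI, between 12.3% and 15.6% had 2 to 4, and 5 or more were found in 2.42% and 1.65% of cells in the WT pups and in 3.82%, 1.81% and 4.29% in the mutant pups. The most in a single cell was 9 UMIs in both WT pups and 30, 16 and 19 in the mutant pups. Crabp1, the related binding protein, was in the same cluster, at 33.5 and 53.7 CPM in the WT pups and 78.7, 41.9 and 51.3 CPM in the mutant pups, against 1.77 to 6.40 CPM in the Cilp2 and Col1a1 cells. At 3000 UMIs per cell, Crabp2 was detected in 10.7% and 25.7% of the Crabp1-positive Ostn and Aspn cells of the WT pups and in 16.2% and 14.6% of the Crabp1-negative ones. In the mutant pups the shares were 28.5%, 22.1% and 17.7% with Crabp1 and 20%, 23.6% and 21.4% without it. The Crabp1-positive cells were 28 to 228 per pup, and neither order held in all pups.

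**Figure D2:**
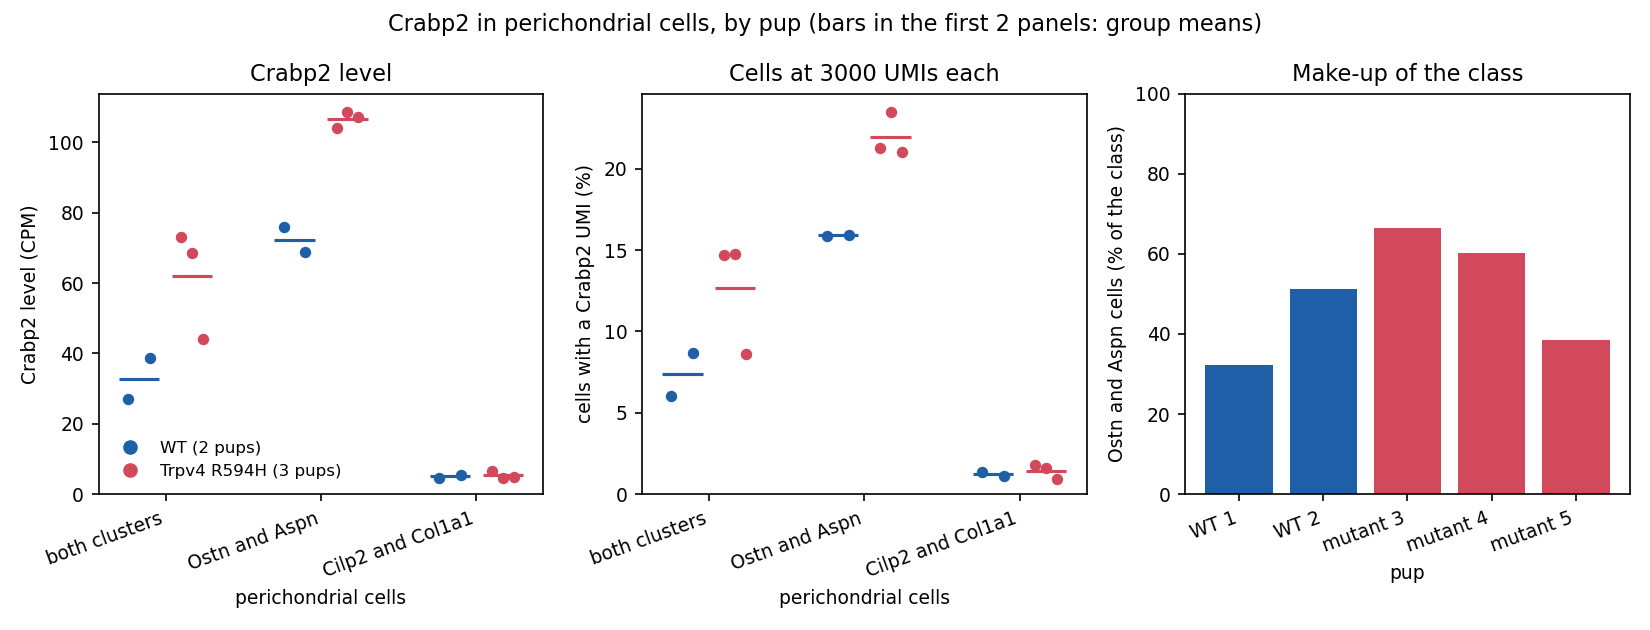
Crabp2 in perichondrial cells. Left, level in CPM per pup in the class and in each of its clusters. Middle, percent of cells with a Crabp2 UMI with every cell thinned to 3000 UMIs. Right, Ostn and Aspn cells as a percent of the class, 1 bar per pup. In the first panels points are pups (2 WT in blue, 3 mutant in red) and short lines are group means. In the Ostn and Aspn cells the WT pups lie at 68.8 and 75.9 CPM and the mutant pups at 104 to 109 CPM.

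Between genotypes, the level of Crabp2 in the whole perichondrial class was 27.0 and 38.6 CPM in WT pups 1 and 2 and 73.1, 68.4 and 44.1 CPM in mutant pups 3, 4 and 5. The group means were 32.8 CPM ± 8.20 (SD, n = 2) and 61.9 CPM ± 15.6 (SD, n = 3). The groups did not overlap, and mutant pup 5 lay nearest to the WT pups. The fitted log2 fold change was 0.97 with a standard error of 0.24. Its adjusted p, which is the measure that chose the gene, was 0.597 in the clusters made here. edgeR called 0 of the 13465 genes tested (0%), with 1114 at an unadjusted p under 0.05, and DESeq2 called 19, Crabp2 among them, which repeats the choice of the gene on the same counts.

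The make-up of the class also differed between pups. The Ostn and Aspn cells were 32.2% and 51.2% of the perichondrial cells of the WT pups and 66.4%, 60.2% and 38.6% of those of mutant pups 3, 4 and 5, so the groups overlapped. Within the Ostn and Aspn cells the log2 fold change was 0.59 ± 0.11 (SE) and the groups did not overlap, mutant pup 5 included. Within the Cilp2 and Col1a1 cells it was 0.23 ± 0.25 (SE) and the groups overlapped. This split was chosen after seeing the data and uses the counts that chose Crabp2, so it is a description too. edgeR called 0 of 12242 genes in the Ostn and Aspn cells and 0 of 11669 in the Cilp2 and Col1a1 cells. An unadjusted p under 0.05 was found for 1095 and 769 of them. The share of Ostn and Aspn cells with a Crabp2 UMI was 35.5% and 31.9% in the WT pups and 35.1%, 36.2% and 33.3% in the mutant pups as sequenced. Thinned to 3000 UMIs per cell, which removes the unequal depth and left out 78 mutant cells and 0 WT cells, it was 15.9% and 15.9% against 21.3%, 23.5% and 21.0%. With the sex read from Xist and Ddx3y as a covariate the log2 fold change in the class was 0.49 ± 0.18 (SE). Both WT pups read as male, and mutant pup 5 was the only male mutant pup. Each value with sex as a covariate, here and below, therefore rests on mutant pup 5 alone against the WT pups. Mutant pup 5 was also the one nearest to the WT pups, so sex and genotype cannot be told apart in mutant pups 3 and 4.

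Markers of other cell types in the perichondrial class mostly overlapped between the groups. Summed over each list, as a percent of the UMIs of the class, the 8 osteoblast markers were at 0.0331% and 0.0297% in the WT pups and at 0.0518%, 0.0393% and 0.0397% in the mutant pups, and the 7 hypertrophic markers at 0.0305% and 0.0431% against 0.0538%, 0.0491% and 0.0476%, with Phospho1 at 0. The 7 tendon or ligament markers were at 0.754% and 0.628% against 0.524%, 0.586% and 0.582%. The 8 synovial markers overlapped, at 0.0330% and 0.0437% against 0.0474%, 0.0335% and 0.0621%, as did the 7 adventitial markers. Of the 25 lists, those for osteoblasts, hypertrophic chondrocytes and tendon or ligament and 2 lists of red blood cell genes were without overlap, the red blood cell genes lower in the mutant pups. In the Ostn and Aspn cells alone the osteoblast markers were at 0.0305% and 0.0451% in the WT pups and at 0.0693%, 0.05004% and 0.0778% in the mutant pups. Other lists were without overlap there too. Those for hypertrophic chondrocytes and megakaryocytes were higher in the mutant pups. The hypertrophic list includes Alpl, a leading gene of the Ostn and Aspn cells. The lists for fibrocartilage, tendon or ligament and osteoclasts were lower in the mutant pups. The part of any of these markers in the difference of Crabp2 was not tested.

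Stra6, the retinol receptor, was the other of the 9 genes whose groups did not overlap in the perichondrial class. Its level was 1.70 and 2.75 CPM in the WT pups and 8.39, 3.98 and 7.06 CPM in the mutant pups, with a log2 fold change of 1.59 ± 0.33 (SE). These levels rest on 24 and 40 UMIs in the WT pups and on 149, 45 and 76 in the mutant pups. Nearly all of them came from the Ostn and Aspn cells, where the level was 5.43 and 5.27 CPM against 11.98, 6.49 and 18.2 CPM. The osteoblast markers given above were also higher in these cells in the mutant pups. Their part in the difference of Stra6 was not tested. Groups without overlap were found for 26.4% of the genes tested in this class and for 2 of these 9.

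For the remaining genes in perichondrial cells the groups overlapped on the normalised scale of the fit. Crabp1 was at 12.6 and 29.3 CPM in the WT pups and at 54.2, 28.2 and 20.9 CPM in the mutant pups. Rarg, a receptor known from cartilage, was at 122 and 108 CPM in the WT pups and at 84.1, 80.9 and 107 CPM in the mutant pups, with a log2 fold change of -0.30 ± 0.15 (SE), and its groups were apart on the plain CPM scale. With sex as a covariate that value was -0.043. Aldh1a2 was low everywhere in this class, between 1.14 and 3.32 CPM. Rbp4 was at 98.0 and 68.2 CPM against 73.9, 62.7 and 67.0 CPM, and Cyp26b1 at 77.4 and 58.7 CPM against 44.7, 60.6 and 73.5 CPM, and the sign of the fitted difference of Cyp26b1 turned with the clustering and with sex as a covariate. Rara lay between 27.5 and 35.1 CPM in all pups and Rarb between 1.41 and 3.62 CPM.

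**Figure D3:**
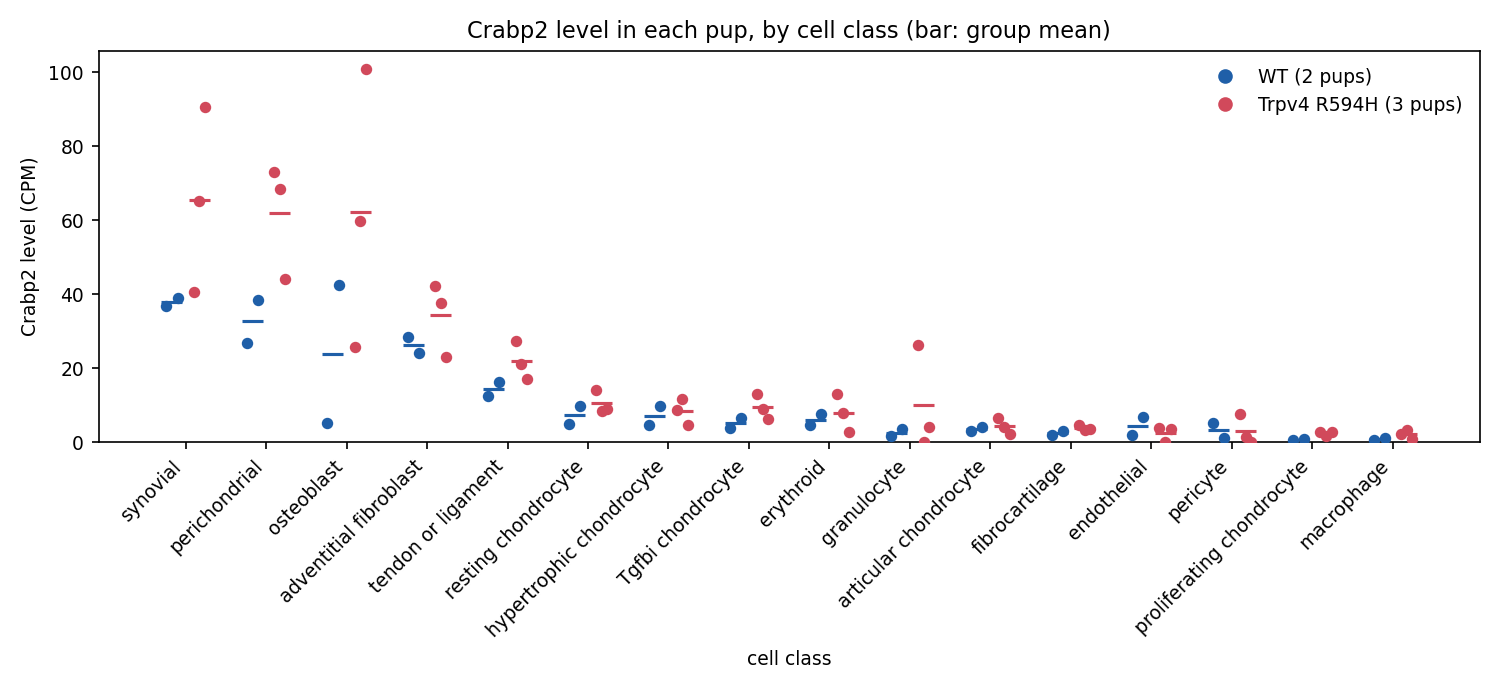
Level of Crabp2 in CPM (vertical axis) in each pup by cell class (horizontal axis), blue for the 2 WT pups and red for the 3 mutant pups, with group means as short bars. The highest levels are in synovial, perichondrial, osteoblast and adventitial cells, and the osteoblast pups spread from 5.24 to 101 CPM.

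In tendon or ligament cells, the largest named class with 14148 cells, Crabp2 was at 12.5 and 16.2 CPM in the WT pups and at 27.4, 21.1 and 17.0 CPM in the mutant pups. The groups did not overlap, WT pup 2 and mutant pup 5 lying close together, and the log2 fold change was 0.72 ± 0.19 (SE) with an adjusted p of 0.898 by edgeR's quasi-likelihood test with Benjamini-Hochberg adjustment over all genes. With sex as a covariate, where mutant pup 5 alone stands against the WT pups, it was 0.33 ± 0.18 (SE). edgeR called 0 of 14672 genes in this class (0%), with 679 at an unadjusted p under 0.05, and DESeq2 called 1, which was not in the pathway. Of the 9 genes, Crabp2 and Rara were without overlap here, beside 23.4% of the genes tested. The cluster led by Podn and Aqp1 held 33.9 CPM of Crabp2 over all pups and the largest cluster of the class, led by Kera and Tnmd, 10.6 CPM, and the part of this make-up in the difference between genotypes was not tested. The Podn and Aqp1 cluster scored higher for perichondrium, and the earlier fit that chose Crabp2 may have counted its cells as perichondrial. The contrast in tendon or ligament cells may thus not be separate from the one that chose Crabp2. Rara, a receptor, was at 35.4 and 34.7 CPM in the WT pups and at 39.3, 37.3 and 46.0 CPM in the mutant pups.

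In synovial cells Crabp2 was at 36.7 and 39.1 CPM in the WT pups and at 40.6, 65.1 and 90.7 CPM in the mutant pups. In osteoblasts it was at 5.24 and 42.6 CPM in the WT pups and at 25.8, 59.8 and 101 CPM in the mutant pups, on 2 to 71 UMIs per pup. In adventitial fibroblasts it was at 28.6 and 24.1 CPM against 42.2, 37.6 and 23.0 CPM. These classes had 350 to 6049 cells and were not tested between genotypes. Mutant pup 5 was the highest in synovial cells and osteoblasts and the lowest in adventitial fibroblasts.

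Crabp2 did not pass edgeR's test in the 4 chondrocyte classes tested. The Tgfbi chondrocytes, fibrocartilage and the unnamed clusters were not tested between genotypes on their own. In resting chondrocytes it was at 4.82 and 9.84 CPM in the WT pups and at 14.1, 8.42 and 8.97 CPM in the mutant pups, with overlapping groups, a log2 fold change of 0.60 ± 0.30 (SE) and an adjusted p of 0.689. In articular chondrocytes the values were 2.95 and 4.19 CPM against 6.61, 4.05 and 2.30 CPM (log2 fold change 0.34 ± 0.36 SE, edgeR adjusted p = 0.907). Proliferating chondrocytes had 3 and 7 UMIs in the WT pups and 12, 11 and 15 in the mutant pups, or 0.505 and 0.973 CPM against 2.70, 1.67 and 2.67 CPM, and the groups did not overlap (log2 fold change 1.62 ± 0.57 SE, edgeR adjusted p = 0.467). In hypertrophic chondrocytes the pups ranged from 4.57 to 11.6 CPM and the log2 fold change was 0.17 ± 0.40 (SE) with an adjusted p of 1.00 by edgeR. With sex as a covariate, where mutant pup 5 alone stands against the WT pups, the direction turned in articular chondrocytes, to -0.54. It also turned in hypertrophic chondrocytes, to -0.69. Over all cells it was at 7.85 and 10.9 CPM in the WT pups and at 21.4, 15.9 and 10.8 CPM in the mutant pups (log2 fold change 0.88 ± 0.28 SE, edgeR adjusted p = 0.841). Mutant pup 5 and WT pup 2 overlapped there on the plain scale and not on the normalised one, and with sex as a covariate the value was 0.30 ± 0.20 (SE). The sums over all cells include the perichondrial cells whose contrast chose Crabp2, which held 380 of the 1305 Crabp2 UMIs of WT pup 1 and 1299 of the 3338 of mutant pup 3, so they are no separate evidence for it. These comparisons share the same 5 pups.

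**Figure D4:**
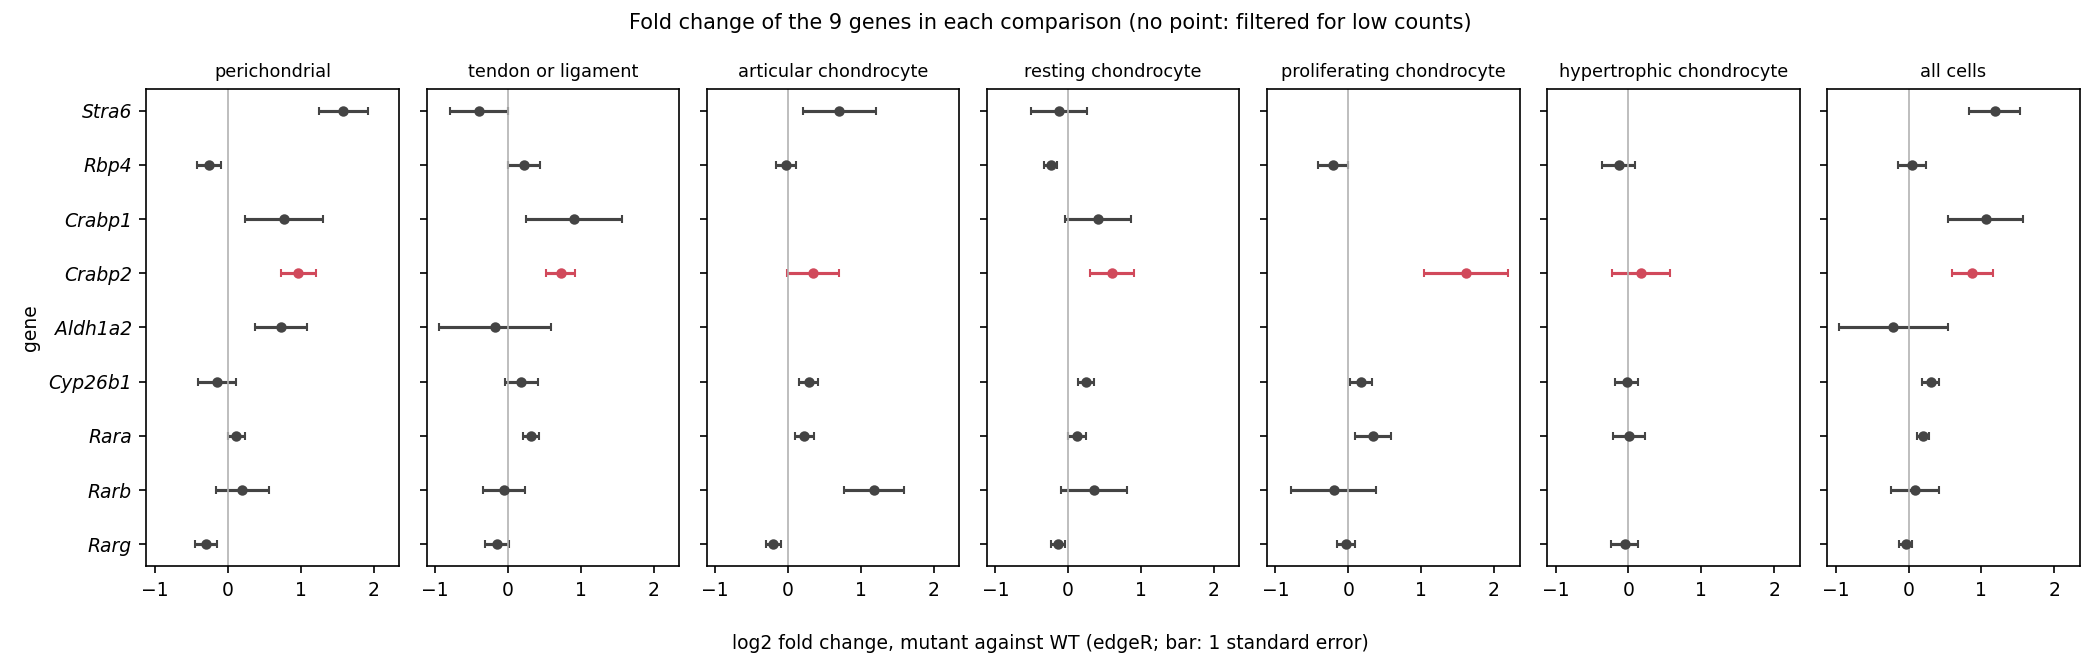
Log2 fold change of the 9 genes, mutant against WT, in each of the 7 comparisons, with bars of 1 standard error from edgeR. Crabp2 is in red. Genes without a point were removed by the filter on low counts. The points of Crabp2 run from 0.17 in hypertrophic to 1.62 in proliferating chondrocytes. With sex as a covariate, which is not plotted, those in articular and hypertrophic chondrocytes are -0.54 and -0.69.

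Among the carriers, Rbp4 was highest in articular chondrocytes of the classes described. Its level in articular chondrocytes was 236 and 195 CPM in the WT pups and 210, 216 and 194 CPM in the mutant pups, so the groups overlapped. The next class, fibrocartilage, had 102 CPM ± 7.31 (SD, n = 5), and the ranges of these classes did not overlap. Single clusters outside the articular class came near it. Over all pups, unnamed clusters of 1441 and 2152 cells held 132 and 119 CPM. A resting chondrocyte cluster of 2300 cells held 122 CPM, and the lowest articular cluster 129 CPM. Rbp4 was lowest in endothelial cells, macrophages, pericytes and synovial cells, with means between 11.04 and 13.2 CPM. In resting chondrocytes it was at 66.6 and 64.3 CPM in the WT pups and at 55.5, 53.2 and 50.2 CPM in the mutant pups, without overlap (log2 fold change -0.24 ± 0.09 SE, edgeR adjusted p = 0.604).

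Crabp1 was highest in perichondrial cells, at 29.0 CPM ± 15.6 (SD, n = 5), and in tendon or ligament cells, at 23.1 CPM ± 14.2, and these did not differ beyond their spread. In tendon or ligament cells the pups lay at 17.6 and 15.3 CPM (WT) and at 24.7, 46.8 and 10.9 CPM (mutant), mutant pup 4 being the highest and mutant pup 5 the lowest. Synovial cells, with 54.5 CPM of Crabp2, had 0.635 CPM ± 0.621 of Crabp1, and chondrocyte classes held 1.27 CPM of Crabp1 or less on average.

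The mean level of Stra6 was highest in osteoblasts, which were above perichondrial cells in 4 of 5 pups, with overlapping ranges. Perichondrial cells, which are more numerous, held more of its UMIs. In osteoblasts it was at 0 and 13.6 CPM in the WT pups and at 17.8, 51.3 and 67.2 CPM in the mutant pups, resting on 0, 15, 49, 36 and 30 UMIs. The 0 of WT pup 1 came from 25 cells, which allows up to 12% of cells to hold a UMI. The class held only 350 cells, and its genotypes were not tested. All of these UMIs came from 1 of its clusters (276 cells), led by Ibsp and Dmp1, genes of bone-forming cells and osteocytes. Outside osteoblasts and perichondrial cells the mean level was at most 1.97 CPM, in the Tgfbi chondrocytes.

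Aldh1a2, which makes retinoic acid, was highest in adventitial fibroblasts, cells of loose connective tissue such as that around vessels. Its level there was 18.4 and 71.8 CPM in the WT pups and 57.3, 26.4 and 79.0 CPM in the mutant pups, with a wide spread in both groups. The class joined 4 clusters, and 1 of them (768 cells), led by Abca8a, Mfap5, Cygb and Entpd2, held 260 CPM over all pups, while the others held 13.1 to 24.0 CPM. Synovial cells followed at 10.9 CPM ± 5.00 (SD, n = 5), below adventitial fibroblasts in 5 of 5 pups. The chondrocyte classes had between 0.217 and 0.547 CPM, and the perichondrial class 2.51 CPM ± 0.887. The cluster with the most Aldh1a2 also had 46.1 CPM of Crabp2 and 24.3 CPM of Crabp1.

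**Figure D5:**
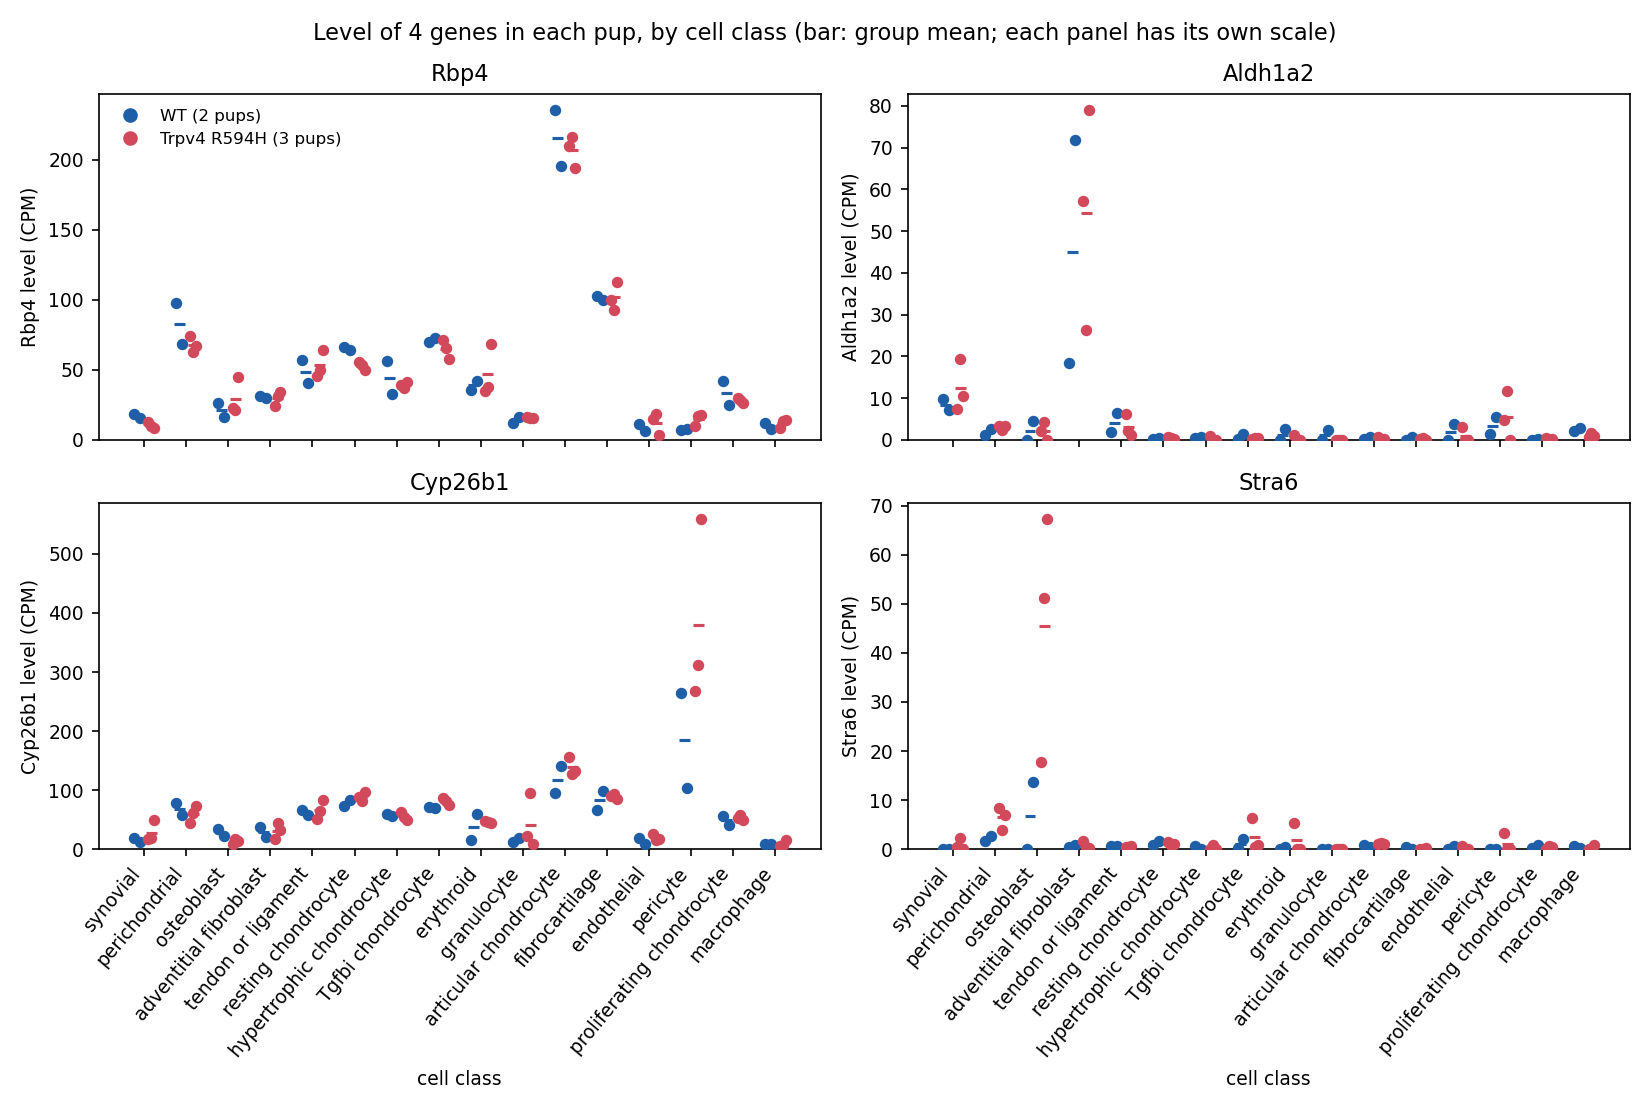
Levels in CPM of Rbp4, Aldh1a2, Cyp26b1 and Stra6 (vertical axes, each with its own scale) in each pup by cell class (horizontal axes), blue for the 2 WT pups and red for the 3 mutant pups, short bars for group means. Rbp4 peaks in articular chondrocytes, Aldh1a2 in adventitial fibroblasts, Cyp26b1 in pericytes and Stra6 in osteoblasts.

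Cyp26b1, which removes retinoic acid, had its highest mean level in pericytes, the contractile cells that wrap small vessels. Its level there was 265 and 104 CPM in the WT pups and 267, 312 and 559 CPM in the mutant pups. WT pup 1 and mutant pup 3 were nearly level, mutant pup 5 was the highest, on 39 cells, and the class was not tested between genotypes. With the cells of all pups pooled the level was 209 CPM. The class was led by Myh11, Tagln, Rgs5 and Acta2, and smooth muscle of vessels had no marker list of its own. Pericytes were above articular chondrocytes, the next class at 130 CPM ± 22.3 (SD, n = 5), in 4 of 5 pups. The other cartilage classes lay between 51.7 CPM ± 6.35 in proliferating chondrocytes and 86.6 CPM ± 12.01 in fibrocartilage. It was low in osteoblasts, endothelial cells and macrophages, with means of 19.0, 17.3 and 9.25 CPM. Erythroid cells had 42.2 CPM ± 16.3, and their range overlapped that of proliferating chondrocytes.

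Within the perichondrial class Cyp26b1 had the pattern opposite to Crabp2. The Ostn and Aspn cells were at 26.0 and 23.2 CPM in the WT pups and 27.4, 36.0 and 27.4 CPM in the mutant pups. The Cilp2 and Col1a1 cells were at 101 and 97.7 CPM against 81.8, 99.5 and 102 CPM, and were the higher cluster in every pup. In resting chondrocytes Cyp26b1 was at 73.7 and 83.9 CPM in the WT pups and 87.6, 82.4 and 96.6 CPM in the mutant pups (log2 fold change 0.25 ± 0.10 SE, edgeR adjusted p = 0.647). In articular chondrocytes it was at 94.9 and 140 CPM against 156, 128 and 132 CPM (log2 fold change 0.28 ± 0.13 SE, edgeR adjusted p = 0.878). In both classes the groups overlapped on the plain CPM scale just given and not on the normalised one.

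Among the receptors, Rarg was carried by cartilage and joint cells alike. Articular chondrocytes had 167 CPM ± 23.3, synovial cells 164 CPM ± 27.5, Tgfbi chondrocytes 161 CPM ± 17.2, hypertrophic chondrocytes 159 CPM ± 30.0 and fibrocartilage 156 CPM ± 11.5 (SD, n = 5), and none of these neighbours differed beyond its spread. Macrophages were lowest at 30.6 CPM ± 5.05. In articular and resting chondrocytes the groups of pups did not overlap on the normalised scale, with log2 fold changes of -0.20 ± 0.11 (SE, edgeR adjusted p = 0.878) and -0.14 ± 0.09 (SE, edgeR adjusted p = 0.733).

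Rara was highest in endothelial cells, at 68.4 and 84.0 CPM in the WT pups and 68.3, 84.0 and 95.7 CPM in the mutant pups. Its range there did not overlap that of articular chondrocytes, the next class at 59.2 CPM ± 7.14 (SD, n = 5). Proliferating chondrocytes had the least, 16.2 CPM ± 4.67. Rarb had few UMIs anywhere. Its means were 7.59 CPM ± 3.81 in synovial cells, 7.51 CPM ± 2.38 in adventitial fibroblasts and 7.11 CPM ± 4.31 in pericytes, with no order among them, and in chondrocyte classes they were 2.77 CPM or less. In articular chondrocytes Rarb was at 0.842 and 0.763 CPM in the WT pups and at 1.93, 1.64 and 1.82 CPM in the mutant pups, on 8 to 21 UMIs per pup (log2 fold change 1.18 ± 0.41 SE, edgeR adjusted p = 0.878).

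None of the 9 genes passed the threshold in any of the 7 comparisons in edgeR, of which that in perichondrial cells served to choose Crabp2. In the other comparisons an unadjusted p under 0.05 was found for Crabp2 and Rara in tendon or ligament cells, Cyp26b1 and Rarb in articular, Cyp26b1 and Rbp4 in resting and Crabp2 in proliferating chondrocytes, and Crabp2, Cyp26b1 and Stra6 over all cells. The sums over all cells include the perichondrial cells, so that comparison is not separate from the one that chose Crabp2. The same may hold for tendon or ligament cells, because of the cluster led by Podn and Aqp1. DESeq2 called none of the 9 outside perichondrial cells. The counts without overlap that follow are on the normalised scale. On the plain scale the groups overlapped for Cyp26b1 and Rarg in articular chondrocytes, for Cyp26b1 in resting chondrocytes and for Crabp2 and Rara over all cells. In articular chondrocytes 7 of the 9 passed the filter on low counts and 4 were without overlap between the groups, 3 higher and 1 lower in the mutant pups, where edgeR called 0 of 13006 genes (0%), 673 had an unadjusted p under 0.05, DESeq2 called 1 and 22.2% of genes were without overlap. In resting chondrocytes 8 passed the filter and 3 were without overlap, where edgeR called 1 of 14642 genes (0.00683%), DESeq2 called 43 and 25.7% were without overlap. There 1122 genes had an unadjusted p under 0.05 in edgeR. In proliferating chondrocytes 6 passed and 1 was without overlap, where edgeR called 2 of 12277 genes (0.0163%), DESeq2 called 31 and 25.5% were without overlap. Here too 1122 genes had an unadjusted p under 0.05 in edgeR. In hypertrophic chondrocytes 5 passed and 0 were without overlap, where edgeR and DESeq2 both called 0 genes (0% of 9930 in edgeR), 346 and 138 had an unadjusted p under 0.05 in the respective tests and 19.4% were without overlap. Over all cells 9 passed and 4 were without overlap, where edgeR called 0 of 21024 genes (0%), 1169 had an unadjusted p under 0.05, DESeq2 called 48 and 22.5% were without overlap. Crabp1 and Aldh1a2 were the genes below the filter in articular chondrocytes, Aldh1a2 in resting, Crabp1, Aldh1a2 and Stra6 in proliferating, and these with Rarb in hypertrophic chondrocytes.

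The wider list of the pathway held 51 genes, 9 for uptake and carriers, 2 for storage, 15 for synthesis, 3 for degradation, 6 receptors, 6 coregulators and 10 response genes, and all 51 were in the files. edgeR called 0 of them in each of the 7 comparisons, with between 2 and 7 at an unadjusted p under 0.05. Over all genes tested, 9930 to 21024 per comparison, 346 to 1169 were under that value. Apart from Crabp2 in the contrast that chose it, DESeq2 called 1 list gene, Adh7, a retinol dehydrogenase, over all cells. In perichondrial cells 39 were tested, and their median log2 fold change was 0.02 beside -0.01 over all genes. Of the 39, 8 (20.5%) were without overlap. Besides the genes above, those at 50 CPM or more in this class included Fabp5, another carrier of retinoic acid, at 63.6 and 68.5 CPM in the WT pups and 94.1, 80.7 and 54.3 CPM in the mutant pups, and the corepressor Ncor1, which lay between 155 and 174 CPM in all pups. In the other comparisons between 20% and 32.3% of the list genes tested were without overlap. In tendon or ligament cells the median over 40 list genes was 0.04, in articular chondrocytes 0.04 over 35, in resting chondrocytes 0.01 over 36, in proliferating chondrocytes -0.03 over 31, in hypertrophic chondrocytes -0.12 over 27 and over all cells 0.05 over 45, beside medians of all genes between -0.02 and 0.01. Fewer of them passed the filter in the small classes, and passing it depends on the level in the pups compared.

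Genes whose level followed that of Crabp2 over the 16 classes were sought among 9778 genes, by Pearson's r of the log2 mean level with 5 CPM added. The closest were Robo2, a receptor for Slit guidance proteins (r = 0.91), Tspan11 (0.90), Prrx2, a mesenchymal homeobox factor (0.86), Sema3b, a secreted semaphorin (0.84), and Glis2, a zinc finger factor (0.83). For Cyp26b1 they were Atp10a (0.91), Crispld2 (0.87), Ndrg2 (0.85), Adcy2, an adenylate cyclase (0.84), and Mark1, a kinase (0.82), each highest in pericytes. These values describe 16 classes taken from the same 5 libraries and carry no test.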

How the data were processed

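UMI counts per gene and cell, deposited by the authors as 1 raw matrix per pup with no normalization, were used. Per the labels the libraries were made on the BD Rhapsody HT Express system, and the processing notes name mm10 (GRCm38) as the build, and the methods a hosted pipeline for barcodes and quantification, while the aligner and annotation are not given in the sources used here. Rows were matched to genes by symbol. Cells with 200 to 6000 genes and up to 10% mitochondrial UMIs were kept, as in the study, and no doublet caller was run. Cells were clustered over 3000 variable genes without the retinoic acid list, mitochondrial or sex-linked genes (Pearson residuals with theta 100, 50 components, 20 neighbours, Leiden at resolution 1.5 with igraph 0.11.9), and clusters were named from marker lists. These names are rebuilt here and may differ from those of the study. Per pup and class, UMIs were summed and tested with edgeR 4.0.16 (quasi-likelihood, TMM, filterByExpr, Benjamini-Hochberg, threshold 0.05) in R 4.3.3, with DESeq2 1.42.0 as an alternative. Overlap of groups was judged on TMM-normalised CPM in tested classes and on plain CPM in the others. On simulated counts with 200 genes shifted by 1 on the log2 scale, 187 were found again in perichondrial cells beside 16 false calls, and 154 to 197 in the other comparisons beside 16 to 30 false calls, the most (30 beside 194 found again) in articular chondrocytes. In each comparison the false calls were a larger share of the calls than the threshold of 0.05. On the measured perichondrial counts edgeR called 0 genes. The simulation does not tell how many changes of 1 on the log2 scale were missed in the measured pups, since the genes that truly changed in them are not known. Error bars cover 2 and 3 littermate pups per group, and limits on a count of 0 cover counting error only.

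The genes and lists were chosen with earlier results of these data known. Named genes are the 9 genes in each class, list genes past the threshold or at 50 CPM or more in perichondrial cells, the 5 genes most like Crabp2 and Cyp26b1 in pattern, and Trpv4, Xist and Ddx3y as checks. A list gene that this rule names is not reported here. Alternatives were a different tool, scaling, filter, clustering or mitochondrial limit, sex as a covariate, and each pup left out in turn. With sex as a covariate the difference between genotypes is that of the only male mutant pup against the WT pups.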

Additional observations from a re-analysis of the deposited data

How the results depend on the processing

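With the settings of the report edgeR called none of the 9 genes. Without the filter on low counts it called Stra6 in perichondrial cells, where it called 127 of the 24014 genes tested. Stra6 had also passed the filter there and was not called with it. Of 464 log2 fold changes recomputed for 36 results, 421 kept their sign and 43 did not, 9 of these in perichondrial cells. Calls over all genes depended on the tool and the pups. DESeq2 called 19 genes in perichondrial cells, 1 in tendon or ligament cells, 1 in articular, 43 in resting and 31 in proliferating chondrocytes and 48 over all cells. Without a filter on low counts edgeR called 127 in perichondrial cells, 24 in articular, 103 in resting, 133 in proliferating and 11 in hypertrophic chondrocytes. In resting chondrocytes the 1 call became 2 with RLE size factors and 0 with sex as a covariate, a mitochondrial limit of 20%, resolution 0.8, another seed or the retinoic acid list kept in the clustering. In proliferating chondrocytes the 2 calls became 10 at resolution 0.8 and 0 with sex, the 20% limit, another seed or the list kept. The 20% limit gave 1 call in hypertrophic chondrocytes. Leaving out 1 pup gave 0 to 5 calls in perichondrial cells, 0 to 6 in tendon or ligament cells, in articular chondrocytes and over all cells, 0 to 18 in resting (18 without mutant pup 5), 1 to 196 in proliferating (196 without WT pup 1) and 0 to 13 in hypertrophic chondrocytes (13 without WT pup 2). Where a WT pup is left out, the lone WT pup is assumed to vary like the mutant pups. List genes called were 1 in perichondrial cells by DESeq2 (Crabp2) and 1 without the filter (Stra6), 1 in proliferating chondrocytes without the filter and 0 to 1 with a pup left out (Fabp5), and 1 over all cells by DESeq2 (Adh7).

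The log2 fold change of Crabp2 over the whole perichondrial class lay between 0.49 (sex as a covariate) and 1.21 (without WT pup 2), and between 0.76 and 1.21 with 1 pup left out. Its level there was 94.1 CPM with another clustering seed. In perichondrial cells the sign of Cyp26b1 was not stable, with 0.17 for sex as a covariate, 0.039 at resolution 0.8, 0.21 with another seed, and 0.33 and 0.073 in the Ostn and Aspn and the Cilp2 and Col1a1 cells alone, an alternative chosen after seeing the data. With 1 pup left out its value there ran from -0.36 to 0.10, that of Rbp4 from -0.52 to 0.070 and that of Rara from -0.018 to 0.27. Elsewhere signs changed with sex as a covariate for Crabp1 (-0.52) and Rarg (0.16) in tendon or ligament cells, Crabp2 in articular (-0.54) and hypertrophic chondrocytes (-0.69), and Rarg in proliferating chondrocytes (0.038) and over all cells (0.082). They changed with another clustering or mitochondrial limit for Rbp4 in tendon or ligament cells (-0.012), for Rbp4 and Rarg in proliferating chondrocytes (0.024 and 0.017), and in hypertrophic chondrocytes for Rbp4 (0.091 and 0.037), Cyp26b1 (0.19 and 0.034) and Rara (-0.063). In the other comparisons, with 1 pup left out, the values spanned 0 for Rbp4 in tendon or ligament cells (-0.037 to 0.54), articular (-0.23 to 0.20), proliferating (-0.57 to 0.24) and hypertrophic chondrocytes (-0.53 to 0.27) and over all cells (-0.17 to 0.31), for Crabp2 in articular (-0.067 to 0.62) and hypertrophic chondrocytes (-0.14 to 0.90), for Cyp26b1 in proliferating (-0.048 to 0.42) and hypertrophic chondrocytes (-0.13 to 0.024), for Rarg in proliferating (-0.12 to 0.072) and hypertrophic chondrocytes (-0.35 to 0.36) and over all cells (-0.11 to 0.0064), and for Rara in hypertrophic chondrocytes (-0.15 to 0.14). The cause was not tested. No paired analysis was possible because the groups share no replicate numbers.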
